A study of Arabidopsis thaliana with 30 samples.

Results

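The comparison described here set 3 libraries of the suppressor line dcl1-24/hyl1-2 against 3 libraries of its parent hyl1-2, all from seedlings kept at 27 °C. These 6 libraries belong to a series of 30, in which whole Arabidopsis seedlings of the Col-0 background spent 2 days in red light at 21 °C after cold treatment of the seeds, were moved to 27 °C or left at 21 °C for another 2 days, and were collected 96 h after the start of growth. Poly(A) RNA was sequenced, and 21780 of the 25300 genes in the table reached 1 CPM (counts per M counted reads) in at least 3 of the 30 libraries and were tested. Both compared groups carry hyl1-2, which the study describes as a null allele of HYL1, and they are distinguished by dcl1-24, a dominant proline-to-serine substitution in an RNase III domain of DCL1. The suppressor was isolated after chemical mutagenesis because its hypocotyl was taller than that of hyl1-2 at 27 °C and not at 21 °C. Each genotype is 1 line, so that dcl1-24 and any other mutation that the suppressor line carries cannot be told apart. Col-0 at 27 °C and both mutant lines at 21 °C, with 3 libraries each, serve as references below.

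DCL1 is the RNase III enzyme that cuts plant miRNAs out of their hairpin precursors, and HYL1 is the double-stranded RNA-binding partner that makes this cutting efficient and precise. A mature miRNA is loaded into ARGONAUTE1 and pairs with mRNAs at a site that matches nearly its whole length, after which the mRNA is cut or its translation is reduced. Plants that lack HYL1 contain less of many miRNAs and more of many target mRNAs. The question of the comparison is which of the transcripts that hyl1-2 seedlings hold in the warm move when DCL1 carries the suppressor substitution. Small RNAs are not part of the measurements described here, and MIRNA primary transcripts were not analysed here.

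Some of the target mRNAs named below are those of a few miRNAs. The mature sequences of these miRNAs, from RefSeq, are shown 5′ to 3′ with the seed, bases 2 to 8, in capitals.
miR156a-5p: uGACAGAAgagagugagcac
miR169a-5p: cAGCCAAGgaugacuugccga
miR398b-3p: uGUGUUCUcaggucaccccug
miR408-3p: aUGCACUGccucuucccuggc
miR397a: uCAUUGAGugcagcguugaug
The stretch of each target transcript that pairs best with its miRNA without gaps is given next, also 5′ to 3′ and from RefSeq, with the bases opposite the seed in capitals.
SPL3 with miR156a: uugcuuacucucUUCUGUCa
SPL9 with miR156a: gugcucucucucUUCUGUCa
NF-YA2 with miR169a: caggcaaaucaucUUUGGCUc
CSD2 with miR398b: ugcgggugaccugGGAAACAu
ARPN with miR408: ccaagggaagaggCAGUGCAu
LAC17 with miR397a: aaucaaugcugcaCUUAAUGa

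In the TAIR10.1 assembly the SPL3 site lies in the 3′ UTR at chr2:14305878-14305897 on the plus strand, and 18 of its 20 bases are complementary to the miRNA. The SPL9 site is in coding sequence at chr2:17589066-17589085 on the plus strand, with 19 of 20 bases complementary. The NF-YA2 site is in the 3′ UTR at chr3:1676807-1676827 on the minus strand, with 16 of 21 complementary. For CSD2 the site is in coding sequence at chr2:12015572-12015592 on the plus strand, with 13 of 21, so that its pairing without gaps is the loosest of those shown. The ARPN site is in coding sequence at chr2:827696-827716 on the minus strand, with 19 of 21, and the LAC17 site in coding sequence at chr5:24169068-24169088 on the plus strand, with 18 of 21. These matches describe the sequences and were not tested for cutting.

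The 3 hyl1-2 libraries held 20.5 to 22.8 M counted reads and the 3 dcl1-24/hyl1-2 libraries 22.4 to 23.2 M, which makes depth similar in both groups. Changes are log2 differences of log2(CPM + 0.5), fitted with limma over all 30 libraries and given minus the change of the median gene (0.22 at 27 °C), ± the standard error with n = 3 per group. The adjusted p tests the change before that subtraction. Like the standard error, it rests on the spread between replicates in all 30 libraries and not on that of the compared groups alone. The study calls the replicates biological without saying whether they were grown separately. A gene is said to have risen or fallen where its Benjamini-Hochberg adjusted p was under 0.05 under each of 2 scalings, the deposited totals and median-of-ratios factors. By this rule 615 genes (2.82% of those tested) rose and 333 (1.53%) fell in dcl1-24/hyl1-2 relative to hyl1-2 at 27 °C, 4.35% in all. With the deposited totals alone 2205 genes were higher and 333 lower (11.7% in all), and with median-of-ratios scaling 615 and 734, so that the balance of directions depended on the scaling. Among the genes that changed, 225 rose and 176 fell at least 2-fold relative to the median gene. With the replicate number as a block 1018 genes rose and 515 fell. Without replicate 1 of dcl1-24/hyl1-2 the number of genes that changed was 426, without replicate 2 of hyl1-2 it was 517, without replicate 3 of hyl1-2 it was 586, and without replicate 3 of dcl1-24/hyl1-2 it was 630.

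The same pair of genotypes at 21 °C, measured in other libraries, gave 3026 genes that rose (13.9%) and 1939 that fell (8.9%), in all 22.8%, or 31.5% with the deposited totals. Of the genes that rose at 27 °C, 327 rose at 21 °C as well, which is 53.2% of the first list and 10.8% of the second. Of those that fell at 27 °C, 165 also fell at 21 °C, or 49.5% and 8.51% of the lists. The change at 27 °C was more positive than that at 21 °C for 446 genes (2.05%) and more negative for 249 (1.14%), together 695 (3.19%; 3.31% with the deposited totals), or 1578 with the block, 249 without replicate 2 and 1824 without replicate 3 of dcl1-24/hyl1-2 at 21 °C. Against Col-0 at 27 °C, 266 genes were higher (1.22%) and 570 lower (2.62%) in hyl1-2, in all 3.84%, whereas 126 were higher (0.579%) and 205 lower (0.941%) in dcl1-24/hyl1-2, in all 1.52%. The deposited totals alone gave 4.39% and 2.07%. These comparisons share libraries with the one described, so their values are set side by side below and not read as separate evidence.

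The 2 mutated genes themselves did not change in the warm by the test. HYL1 (AT1G09700) had 18.3, 18.3 and 12.7 CPM in hyl1-2, 16.7, 12.5 and 14.4 CPM in dcl1-24/hyl1-2 and 8.73, 8.58 and 6.17 CPM in Col-0. Reads on HYL1 were thus more frequent in both mutant lines than in Col-0, and RNA counts do not check the null label. HYL1 overlaps a neighbouring gene by 36 bases, and no source used here states whether the counting was strand-specific. DCL1 (AT1G01040) had 74.6, 91.9 and 86.4 CPM in hyl1-2 and 70.8, 73.4 and 83.1 CPM in the suppressor (−0.37 ± 0.18, adjusted p = 0.594). The groups overlapped for both genes. None of the 29 tested genes for miRNA processing and action rose or fell at 27 °C, and their median change was 0.01.

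Some SPL transcription factors, SPL9 among them, promote the juvenile-to-adult transition of the shoot, and miR156 holds down most of the family. The study describes SPL3 as not contributing to that transition. SPL3 (AT2G33810), a small family member with its site in the 3′ UTR, had 10.7, 15.3 and 9.24 CPM in hyl1-2 and 3.07, 2.72 and 3.3 CPM in dcl1-24/hyl1-2. The groups were clearly apart, and the suppressor libraries lay just above the 2.25, 1.49 and 2.18 CPM of Col-0. The fall was −1.99 ± 0.28 (adjusted p = 0.000113). An antisense gene, AT2G33815, covers nearly all of SPL3 and has near-identical values, so reads of the pair cannot be assigned to either. SPL9 (AT2G42200), which controls leaf initiation and shoot maturation, fell from 8.84, 8.42 and 10.7 CPM to 5.49, 5.30 and 4.51 CPM (−1.03 ± 0.21, adjusted p = 0.0143), a call lost without replicate 3 of either group.

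The remaining miR156-targeted genes did not pass the test at 27 °C. SPL10 came nearest, with 17.2, 14.4 and 16.2 CPM in hyl1-2 and 10.3, 12.5 and 11.9 CPM in the suppressor (−0.66 ± 0.16, adjusted p = 0.0731). The fitted changes were −0.59 ± 0.26 for SPL6, −0.46 ± 0.23 for SPL13A, −0.28 ± 0.15 for SPL2, 0.01 ± 0.21 for SPL11 and 0.05 ± 0.29 for SPL15. SPL4 and SPL5 were near the lower limit of detection, at up to 1.49 and 1.23 CPM, and SPL13B did not pass the filter. SPL15 and SPL5 lie wholly within opposite-strand genes, AT3G57910 and AT3G15260, and may hold reads of these. In all, 2 of the 10 tested miR156 targets fell, against 1.53% of all genes, and their median was −0.55. Of the 6 SPL genes that lack such a site none fell or rose, and their median was 0.00.

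NF-YA2 (AT3G05690), a subunit of the CCAAT-binding NF-Y complex and a miR169 target, had the smallest adjusted p among the fallen targets. It had 51.9, 42.6 and 46.5 CPM in hyl1-2, 19.1, 20.5 and 18.3 CPM in dcl1-24/hyl1-2 and 12.1, 10.3 and 11.7 CPM in Col-0. The 3 groups did not overlap, and the suppressor lay between its parent and Col-0. The fall was −1.48 ± 0.15 (adjusted p = 2.12e-06), while the suppressor was still above Col-0 (0.58, adjusted p = 0.00614). At 21 °C NF-YA2 fell by −1.57 ± 0.15. The median of the 8 miR169 targets was −0.77, although NF-YA2 was the only one of them that fell.

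CSD2, CCS and ARPN were the 3 of 13 tested copper protein targets that fell, against 1.53% of all genes. CSD1 (−0.52) and COX5B-1 (0.04), which miR398 also targets, did not pass the test. CSD2 (AT2G28190), the chloroplast copper/zinc superoxide dismutase, had 318, 188 and 300.2 CPM in hyl1-2 and 127, 115 and 133 CPM in dcl1-24/hyl1-2, beside 118, 105 and 139 CPM in Col-0. The suppressor libraries lay within the range of Col-0 and below every hyl1-2 library, and the change was −1.29 ± 0.19 (adjusted p = 0.000457). CCS (AT1G12520), the chaperone that delivers copper to these dismutases, fell from 74.4, 65.3 and 92.9 CPM to 41.9, 47.4 and 54.1 CPM (−0.90 ± 0.15). ARPN (AT2G02850), a small blue copper protein of the plantacyanin type, fell from 6.35, 6.86 and 6.09 CPM to 2.5, 2.33 and 1.25 CPM (−1.71 ± 0.28, adjusted p = 0.000779). Its change at 21 °C was −0.25 ± 0.28, and the difference between the temperatures passed the test (−1.44 ± 0.39, adjusted p = 0.043).

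The other targets that fell belong to 3 further families. MYB65 (AT3G11440), a gibberellin-linked MYB factor under miR159, had 8.15, 8.28 and 12.7 CPM in hyl1-2 and 4.52, 5.30 and 6.25 CPM in the suppressor (−1.0 ± 0.25, adjusted p = 0.0372). GRF3 (AT2G36400), a growth-regulating factor of leaves under miR396, fell from 30.5, 28.5 and 24.2 CPM to 22, 17.2 and 18.3 CPM (−0.74 ± 0.15, adjusted p = 0.0224). HTT2 (AT5G18040), named for a role in heat tolerance and targeted by a tasiRNA, fell from 17.3, 14.4 and 16.9 CPM to 7.95, 10 and 8.75 CPM (−1.05 ± 0.22, adjusted p = 0.0151). No library of one group reached the other group in these 3 genes, but each call was lost when 1 of certain libraries was left out, listed with the limits at the end. With the replicate block ARF17 (adjusted p = 0.047), TAS3A (0.047), CUC2 (0.042), PHV (0.04) and LCR (0.049) were called lower as well.

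**Figure D1:**
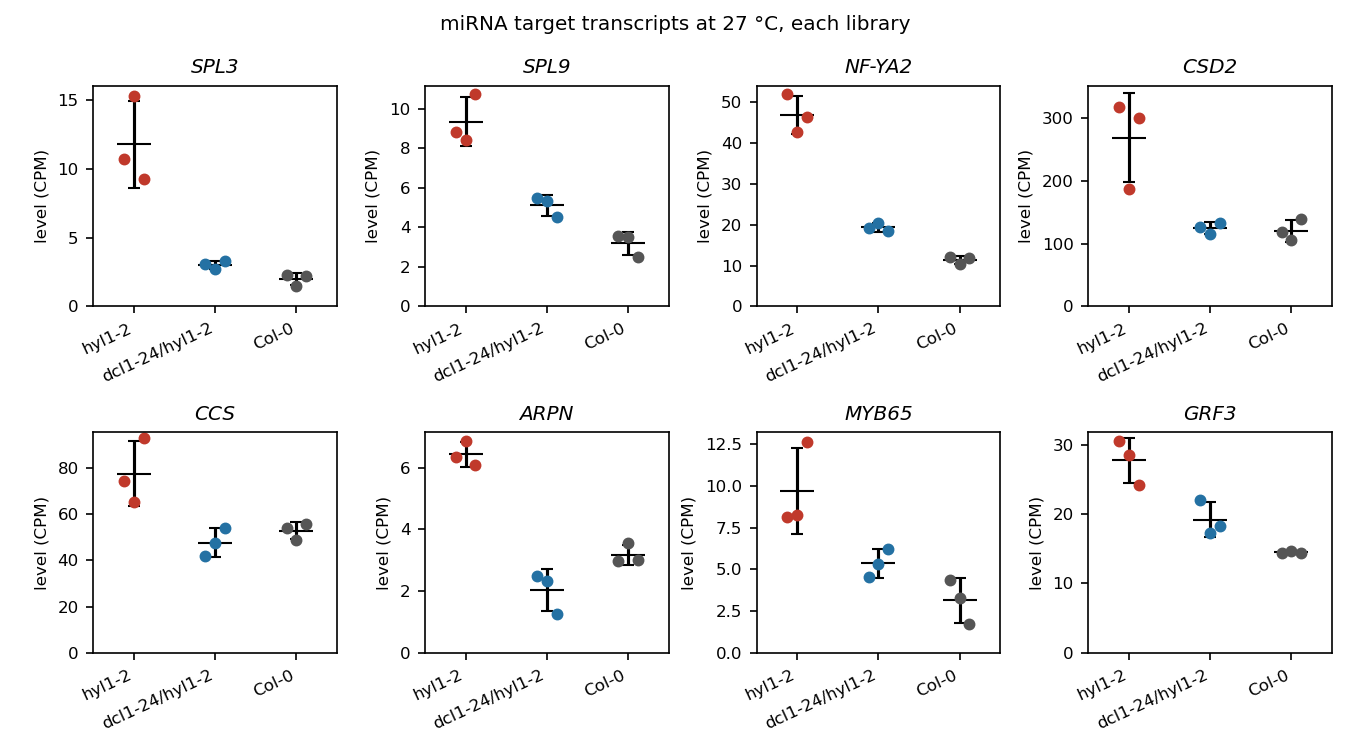
CPM of 8 miRNA-targeted genes in each library at 27 °C, with 1 point per library, a bar at the mean and an error bar of 1 SD (n = 3), for hyl1-2, dcl1-24/hyl1-2 and Col-0. For each of the 8 genes the dcl1-24/hyl1-2 points lie below all hyl1-2 points, and for NF-YA2 they also lie above all Col-0 points.

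A few miRNA targets rose. LAC17 (AT5G60020), a laccase of lignin formation that miR397 targets, had 11.6, 10.7 and 13.9 CPM in hyl1-2 and 33.9, 32.2 and 30.9 CPM in dcl1-24/hyl1-2, above the 25.7, 23.0 and 21.1 CPM of Col-0. The change was 1.17 ± 0.28 (adjusted p = 0.00199), and the gene overlaps AT5G60022. The laccase genes LAC4 (0.95 ± 0.26) and LAC2 (0.99 ± 0.30) rose likewise, and with them the AP2-type flowering repressor SNZ (0.79 ± 0.23), a miR172 target, and the ATP sulfurylase gene APS3 (0.95 ± 0.16), a miR395 target. The miR397, miR398, miR408 and miR857 list of copper proteins therefore moved in both directions, with a median of 0.00. Of its 13 genes 3 were higher, against 2.82% of all genes, and 3 lower, against 1.53%.

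Across all 126 tested members of the miRNA and tasiRNA target lists, 9 fell (7.14%, against 1.53% of all genes) and 5 rose (3.97%, against 2.82%), with a median of −0.25. With the block 14 fell. Without single libraries the number that fell lay between 6 and 9 and the number that rose between 2 and 3. In hyl1-2 against Col-0 33 of the 126 were higher and 1 lower (median 0.37), when 1.22% and 2.62% of all genes were, and in dcl1-24/hyl1-2 against Col-0 8 were higher and none lower (median 0.16), when 0.579% and 0.941% of all genes were. At 21 °C the suppressor had 31 lower and 9 higher targets relative to hyl1-2, with a median of −0.33, when 8.9% of all genes fell and 13.9% rose. None of the 16 pentatricopeptide repeat genes targeted by miR161 and miR400 changed at 27 °C (median −0.21).

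**Figure D2:**
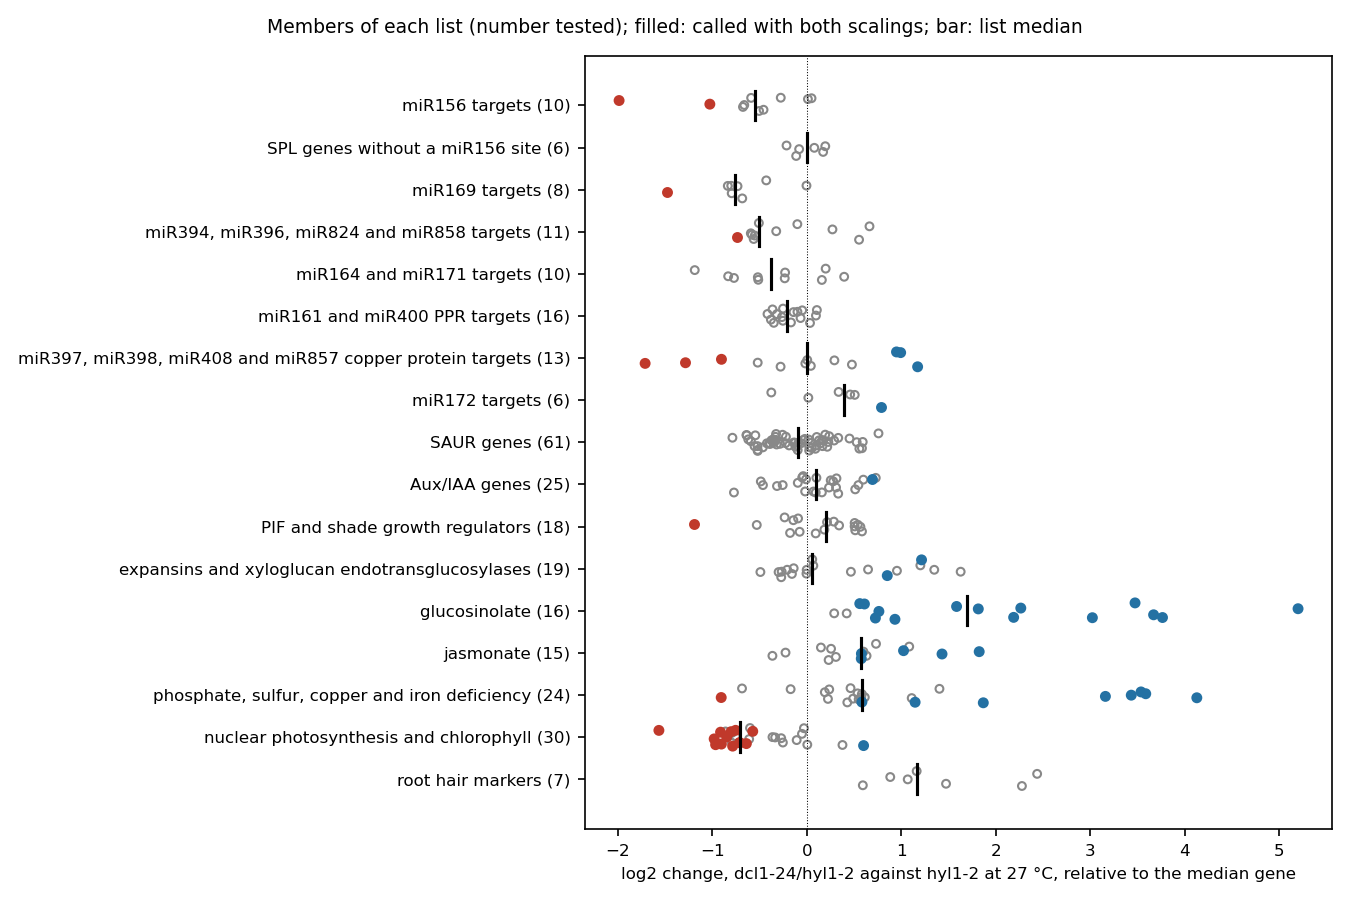
Change in dcl1-24/hyl1-2 relative to hyl1-2 at 27 °C for the tested members of 17 gene lists, as log2 change minus that of the median gene on the horizontal axis, with 1 point per gene. Filled points are genes that rose (blue) or fell (red), open points did not pass the test, and a black bar marks the median of each list, which lies at 1.70 for the glucosinolate genes and at −0.71 for nuclear photosynthesis genes.

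The hypocotyl phenotype by which the suppressor line was isolated directs attention to auxin and cell elongation genes, and few of these changed. Of the 61 tested SAUR genes, small auxin-induced growth promoters, none rose or fell (SAUR14 was called lower with the block), and the median was −0.10. SAUR19 had 3.22, 6.22 and 3.68 CPM in hyl1-2 and 3.25, 5.17 and 3.79 CPM in the suppressor, with the groups overlapping. Among 25 Aux/IAA genes, whose products repress auxin responses, IAA3 (AT1G04240) rose from 25.9, 21.0 and 16.8 CPM to 46.6, 35.0 and 38.4 CPM (0.69 ± 0.16), with reads shared in part with the overlapping AT1G04230. It was the only 1 of the 25 to rise (4%), near the 2.82% of all genes. The warm-growth genes IAA19 (0.55 ± 0.30, adjusted p = 0.0898), IAA29 (0.51 ± 0.29, adjusted p = 0.0925) and YUC8 (0.10 ± 0.23) did not pass the test. YUC2 (AT4G13260), an auxin synthesis enzyme, fell (−0.98 ± 0.24, adjusted p = 0.038), a call lost when any 1 of the 6 libraries was left out. No auxin transport gene of 11 changed, and the importer gene LAX2 was called higher with the block only.

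PIF4 (AT2G43010), the bHLH factor at the centre of warm-induced elongation, had 138, 144 and 121 CPM in hyl1-2, 102, 116 and 106 CPM in dcl1-24/hyl1-2 and 88.8, 112 and 79.1 CPM in Col-0. The suppressor libraries were all below those of hyl1-2, but the change did not pass the test (−0.53 ± 0.23, adjusted p = 0.373). At 21 °C PIF4 rose in the suppressor line (1.58 ± 0.23), and the difference between the temperatures was −2.09 ± 0.32 (adjusted p = 0.000517). Of 18 PIF and shade regulators 1 fell, against 1.53% of all genes, namely PAR1 (AT2G42870), an inhibitor of elongation in shade. With the block HAT2 (0.51) and HBI1 (0.57) were called higher. PAR1 went from 16.8, 20.7 and 14.9 CPM to 9.18, 8.75 and 7.86 CPM (−1.19 ± 0.24, adjusted p = 0.00997), next to 7.68, 8.20 and 8.99 CPM in Col-0.

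Cell wall and gibberellin genes gave a small number of rises. XTH4 (AT2G06850), an abundant enzyme that cuts and rejoins xyloglucan, rose from 663, 504 and 449 CPM to 1321, 1092 and 965 CPM (0.85 ± 0.15, adjusted p = 1.71e-05). XTH33 (AT1G10550) rose from 2.00, 0.824 and 0.876 CPM to 3.87, 4.79 and 3.39 CPM (1.21 ± 0.34). Of 19 expansin and XTH genes these 2 rose, against 2.82% of all genes, or 4 with the block, which added XTH16 and XTH18. The list median was 0.06. The gibberellin synthesis genes GA3OX1 (AT1G15550) and GA20OX1 (AT4G25420) were 2 of 18 in their list to rise, against 2.82% of all genes. GA3OX1 went from 1.56, 0.549 and 1.23 CPM to 6.54, 4.79 and 4.51 CPM (1.66 ± 0.36), and GA20OX1 rose by 1.42 ± 0.35. Both were lower in hyl1-2 than in Col-0 (−2.16 and −1.24). With the block BR6OX1 and GA2OX2 were called higher and CPD lower in the same list.

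Glucosinolate synthesis genes formed the most uniformly changed list. Glucosinolates are sulfur-rich defence compounds of the cabbage family, and the aliphatic ones are made from elongated methionine under the control of MYB28 and MYB29. Of 16 tested genes 14 rose (87.5%, against 2.82% of all genes) and none fell, with a median of 1.70. Without single libraries 12 to 14 rose. CYP79F1 (AT1G16410), the cytochrome P450 that turns elongated methionine into an oxime, had 0.732, 1.78 and 0.350 CPM in hyl1-2, 57.3, 63.0 and 50.8 CPM in dcl1-24/hyl1-2 and 13.7, 12.4 and 7.88 CPM in Col-0. The groups did not overlap, the suppressor was the highest of the 3, and the rise was 5.20 ± 0.45 (adjusted p = 1.05e-08).

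Other steps of the aliphatic pathway moved with it. MAM1 (AT5G23010), which elongates methionine, rose from 5.96, 3.34 and 6.09 CPM to 83.9, 96.7 and 78.6 CPM (3.77 ± 0.42). CYP83A1 (AT4G13770), which acts after CYP79F1, rose from 12.1, 6.68 and 8.93 CPM to 165.6, 147 and 114 CPM (3.67 ± 0.42). BCAT4 (AT3G19710), an aminotransferase at the start of the pathway, rose by 3.48 ± 0.41, and FMOGS-OX1 (AT1G65860), which oxidises the side chain, by 3.02 ± 0.33. The regulators changed less in level, MYB29 from a mean of 0.739 to 5.78 CPM and MYB28 from 29.0 to 55.4 CPM.

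Summed over the 10 aliphatic genes, all of which rose, hyl1-2 libraries held 90.2, 49.3 and 74.2 CPM, dcl1-24/hyl1-2 libraries 531, 507 and 424 CPM and Col-0 libraries 178, 173 and 118 CPM. The suppressor therefore lay above both other groups in every library, and 8 of the 10 genes were called higher in it than in Col-0, against 0.579% of all genes. All 10 rose at 21 °C also, when 13.9% of all genes did, and none differed between the temperatures by the test. The other 6 genes, mainly of the indole branch, behaved otherwise. Of these 4 rose at 27 °C, against 2.82% of all genes, and none at 21 °C. For 4 the change was more positive at 27 °C than at 21 °C, against 2.05% of all genes. That number dropped to 1 without replicate 2 of hyl1-2 at 27 °C or replicate 2 of dcl1-24/hyl1-2 at either temperature. CYP79B2, which acts on tryptophan, rose from a mean of 22.6 to 50.3 CPM at 27 °C (0.93 ± 0.20), with −0.17 at 21 °C. The division of the list into these branches was made with the results in view.

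Iron uptake genes of the root rose as well. IRT1 (AT4G19690), the main iron importer of the root surface, had 1.56, 0 and 7.27 CPM in hyl1-2, 45.2, 37.0 and 39.1 CPM in dcl1-24/hyl1-2 and 35.3, 22.8 and 14.2 CPM in Col-0. The 0 allows up to 0.137 CPM, equal to 3 reads, and all suppressor libraries were above all others (4.13 ± 0.90, adjusted p = 0.00441). FRO2 (AT1G01580), the ferric reductase that works with IRT1, rose from 1.86, 0.412 and 3.28 CPM to 24.6, 18.5 and 18.7 CPM (3.16 ± 0.82, adjusted p = 0.0121).

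The group Ib bHLH factors that switch on these genes under iron shortage changed alongside. BHLH39 (AT3G56980) had 2.54, 0.137 and 1.62 CPM in hyl1-2 and 34.6, 13.0 and 21.0 CPM in the suppressor (3.54 ± 0.43, adjusted p = 1.62e-06), BHLH100 (AT2G41240) rose by 3.59 ± 0.39, BHLH38 (AT3G56970) by 3.44 ± 0.53 and BHLH101 by 1.87 ± 0.37. FIT, their partner, did not pass the test (0.49 ± 0.56). Of 24 tested genes for phosphate, sulfur, copper and iron deficiency 8 rose (against 2.82% of all genes) and 1 fell (against 1.53%), the iron superoxide dismutase gene FSD1 (−0.91 ± 0.14). Root hair markers moved in the same libraries, since the sum over 7 of them was 3.52 to 12.8 CPM in hyl1-2, 24.7 to 77.0 CPM in dcl1-24/hyl1-2 and 24.1 to 32.4 CPM in Col-0. None of the 7 was called, PRP3 and LRX1 were with the block, and none was at 0 in all 6 libraries. At 21 °C their sum was 64.9 to 83.9 CPM in hyl1-2 and 11.6 to 132 CPM in dcl1-24/hyl1-2. There IRT1, FRO2, BHLH38, BHLH39, BHLH100 and BHLH101 together had 14.5, 7.06 and 18.3 CPM in hyl1-2 and 123, 34.6 and 163 CPM in dcl1-24/hyl1-2. The part of the root hair markers in the iron result was not tested, and in whole seedlings fewer cells of a type and less RNA per cell cannot be told apart.

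**Figure D3:**
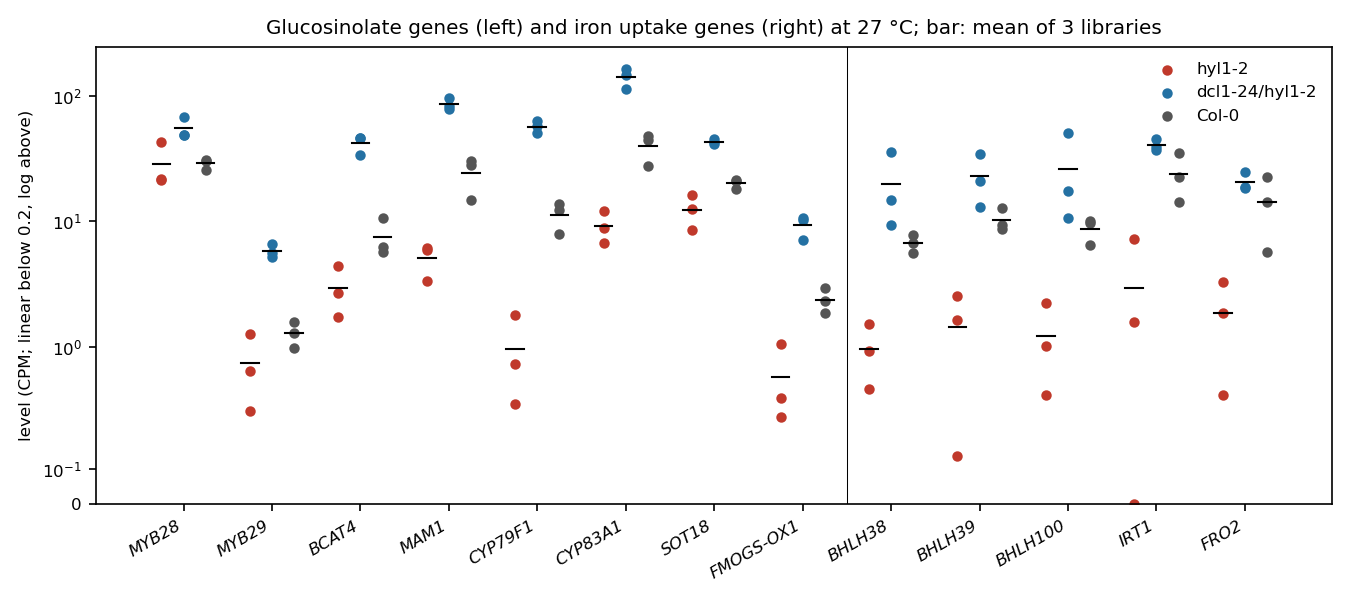
CPM of 8 glucosinolate genes and 5 iron uptake genes in each library of hyl1-2, dcl1-24/hyl1-2 and Col-0 at 27 °C, on an axis that is linear below 0.2 CPM and logarithmic above, with a bar at the mean of the 3 libraries. All 13 genes are higher in every dcl1-24/hyl1-2 library than in any hyl1-2 library, and IRT1 has 1 hyl1-2 library at 0.

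A run of neighbouring genes on chromosome 4 held the 4 largest rises of the comparison. The 9 tested genes from AT4G22475 to AT4G22520 lie within chr4:11844242-11858970 of TAIR10.1, 6 of them belong to a superfamily of lipid-transfer and seed storage proteins, and all 9 rose, by 2.44 to 5.76. AT4G22505 had 1, 1 and 2 reads in the hyl1-2 libraries, 808, 920 and 669 reads in dcl1-24/hyl1-2 and 584, 481 and 393 reads in Col-0. The gene was thus close to absent from hyl1-2 in the warm, and at 21 °C no read of it was counted in any of the 3 hyl1-2 libraries. AT4G22485 had 29, 27 and 8 reads in hyl1-2, 1428, 1874 and 1082 in the suppressor and 1184, 1108 and 860 in Col-0. Several of the 9 overlap each other and share their reads, namely AT4G22475 with AT4G22485, AT4G22495 with AT4G22505, and AT4G22510 with AT4G22513 and AT4G22517.

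At 21 °C 8 of the 9 rose, when 13.9% of all genes did. All 9 were lower in hyl1-2 than in Col-0 at 27 °C, against 2.62% of all genes. None was called in dcl1-24/hyl1-2 against Col-0, against 1.52% of all genes. On one side, the neighbours AT4G22460 to AT4G22470 were not called at 27 °C, while at 21 °C AT4G22460 and the overlapping AT4G22463 fell (−1.76). On the other, AT4G22530, whose longer span contains AT4G22520, rose by 0.63 at 27 °C and was not called at 21 °C. The limits of this run were drawn after the values were seen, and differences between the lines in the DNA of the region were not tested.

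**Figure D4:**
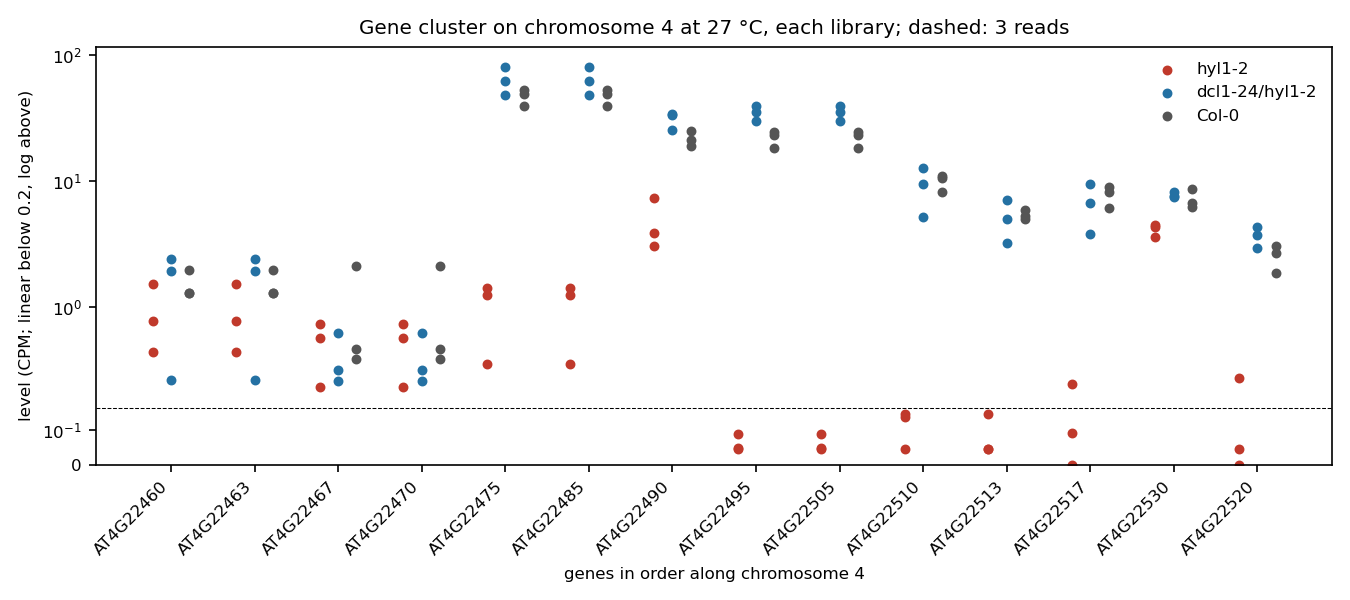
CPM of 14 neighbouring genes of chromosome 4, in the order of their starts on the chromosome, with 1 point per library for hyl1-2, dcl1-24/hyl1-2 and Col-0 at 27 °C on an axis that is linear below 0.2 CPM and logarithmic above, and a dashed line at 3 reads. From AT4G22475 to AT4G22520 the hyl1-2 points lie below those of the other 2 groups at every gene, AT4G22530 included, while AT4G22460 to AT4G22470 overlap.

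Of the other large rises, AT1G13609, annotated as defensin-like, went from 3.08, 0.229 and 1.23 CPM to 67.4, 17.7 and 22.5 CPM (3.99 ± 0.53, adjusted p = 1.17e-05). AT1G49570, a peroxidase superfamily gene, went from 0.439, 0.137 and 0.0876 CPM to 12.2, 7.24 and 10.8 CPM (3.65 ± 0.48), below the 20.2, 16.4 and 25 CPM of Col-0. Both had been lower in hyl1-2 than in Col-0, by −2.97 and −4.81. The rise of AT1G49570 was greater at 27 °C than at 21 °C (2.55 ± 0.68, adjusted p = 0.0353).

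Jasmonate genes rose in part, with 5 of 15 tested members higher (median 0.58; 2.82% of all genes rose) and none lower. LOX2 (AT3G45140), a chloroplast lipoxygenase of jasmonate synthesis, went from 93.2, 96.6 and 116 CPM to 253, 259 and 214 CPM, above the 105, 145 and 82.8 CPM of Col-0. All suppressor libraries were above all others (1.02 ± 0.17, adjusted p = 8.24e-06). VSP2 (AT5G24770), a storage protein that jasmonate induces, rose from 5.47, 7.41 and 4.33 CPM to 26.7, 26.52 and 21.3 CPM (1.83 ± 0.31). JAZ1, a repressor of the pathway (1.43 ± 0.35), OPR3, a jasmonate synthesis enzyme (0.58 ± 0.15), and the factor MYC2 (0.58 ± 0.19), which shares its reads with AT1G32630, rose also. The list had 3 rises without replicate 1 or 2 of hyl1-2 or replicate 2 of dcl1-24/hyl1-2. At 21 °C none of these 5 rose.

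Single members of other lists changed. The immune regulator EDS1 (1.03 ± 0.19) and the salicylic acid exporter EDS5 (0.87 ± 0.23) rose, 2 of 8 tested in their list, against 2.82% of all genes. The chaperone gene HSP70-4 rose from 137, 114 and 117 CPM to 267, 228 and 209 CPM (0.71 ± 0.20). It was the only 1 of 17 heat response genes to do so, against 2.82% of all genes. The DNA replication gene MCM2 (0.86 ± 0.23) and LDOX (1.45 ± 0.40), an enzyme of anthocyanin synthesis, rose, and with the block the flavonoid genes FLS1 and TT19 were called higher too. EPF1, a peptide that restrains stomatal formation, fell (−1.03 ± 0.27, adjusted p = 0.0484). None of the 12 clock genes and none of the 8 hypoxia genes changed, although PCO1 of the latter was called higher with the block.

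MYBL2 (AT1G71030), a repressor of anthocyanin synthesis, was among the clearest falls. It had 20.8, 22 and 18.7 CPM in hyl1-2, 4.96, 5.82 and 5.27 CPM in dcl1-24/hyl1-2 and 13.8, 13.6 and 11.1 CPM in Col-0. The suppressor was the lowest of the 3 groups without overlap (−2.06 ± 0.24, adjusted p = 4.7e-06). AT3G58550 fell from 10.3, 9.88 and 7.01 CPM to 0.791, 1.81 and 1.34 CPM (−2.64 ± 0.29), within the range of Col-0. AT5G35935 fell from 16.2, 12.7 and 11.9 CPM to 2.15, 1.55 and 2.19 CPM (−2.73 ± 0.24), below Col-0 at 4.09, 5.32 and 3.57 CPM. AT5G35935 fell at 21 °C to a like extent (−2.50 ± 0.24), whereas AT3G58550 did not pass the test there (−0.60 ± 0.29).

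Transcripts of the organelles accounted for most of the remaining large falls. Chloroplast genes took 2.19, 3.81 and 1.67% of reads in hyl1-2, 0.377, 0.494 and 0.456% in dcl1-24/hyl1-2 and 2.30, 2.04 and 2.42% in Col-0, so that the suppressor lay below both. The groups were also uneven at 21 °C, with 13.05, 7.40 and 5.28% in hyl1-2 and 1.27, 2.32 and 1.86% in dcl1-24/hyl1-2. Of 115 tested chloroplast-encoded genes 31 fell (61 with the block) and of 49 mitochondrion-encoded genes 8 (16 with the block), against 1.53% of all genes. ATCG00950 fell from 15696, 27483 and 11570 CPM to 1842, 2032 and 2149 CPM (−3.31 ± 0.44), and ATMG00020 from 1053, 2393 and 1384 CPM to 95.0, 189 and 175 CPM (−3.59 ± 0.39). The other IDs of this kind among the 12 largest falls were ATMG00030, ATMG01390, ATCG00490, ATCG00700, ATCG00720, ATCG00960 and ATCG01180, at −2.63 to −3.51, and the nuclear locus AT2G01021 fell by −3.25 ± 0.66. The 18S ribosomal RNA loci AT3G41768 and AT2G01010, whose product carries no long poly(A) tail, moved in the same libraries, from means of 9145 and 2816 CPM in hyl1-2 to 2155 and 616 CPM in the suppressor. At 21 °C their means were 20757 and 6516.5 CPM in hyl1-2 and 7099 and 2184 CPM in dcl1-24/hyl1-2. The organelle IDs carry no names in the annotation used, so which of them are ribosomal RNAs was not determined. The part of poly(A) selection in these falls was not tested.

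Among nuclear photosynthesis genes the median was negative at 27 °C and positive at 21 °C. At 27 °C 13 of 30 fell (1.53% of all genes fell) and 1 rose, PORC of chlorophyll synthesis, with a median of −0.71. At 21 °C 13 rose, when 13.9% of all genes did, and none fell, with a median of 0.44. Of the 30 genes 6 fell at 27 °C and rose at 21 °C, and PORC rose at both. Called at neither temperature were LHCB1.2, LHCB1.4, LHCB1.5, LHCB6, the Rubisco genes RBCS1A, RBCS1B, RBCS2B and RBCS3B, RCA and PORB. The difference itself was negative by the test for 14 of the 30, beside 1.14% of all genes, and 9 of these were among the 13 that fell in the warm. The list took 16.2, 18.6 and 18.9% of all reads in hyl1-2 at 27 °C, 11.2, 14.4 and 14.4% in dcl1-24/hyl1-2 and 12.8, 15.1 and 15.9% in Col-0, and at 21 °C 13.2, 14 and 16.4% in hyl1-2 and 18.25, 19.2 and 17.5% in dcl1-24/hyl1-2. The number that fell at 27 °C rests on single libraries, being 3 without replicate 1 of dcl1-24/hyl1-2, 4 without replicate 2 of hyl1-2 and 6 without replicate 3 of hyl1-2. The number that rose at 21 °C was 6 to 12 and the number with a negative difference 9 to 17 when single libraries were left out.

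Among the light-harvesting proteins, which bind most of the chlorophyll, 10 of 17 genes fell, against 1.53% of all genes. LHCA4 (AT3G47470), of photosystem I, had 8035, 9742 and 9272 CPM in hyl1-2 and 4561, 6135 and 6115 CPM in the suppressor at 27 °C (−0.91 ± 0.15, adjusted p = 0.00407). The groups did not overlap, while at 21 °C the gene rose by 0.60 ± 0.15, with a difference of −1.50 ± 0.22. LHCB2.2 (AT2G05070), of the main antenna of photosystem II, fell in the warm (−0.91 ± 0.21) and rose at 21 °C (1.13 ± 0.21). LHCB4.2 fell by −0.97 ± 0.17 and LHCB1.3 by −0.98 ± 0.21. PORA (AT5G54190), the light-dependent chlorophyll synthesis enzyme of dark-grown seedlings, fell from 3.173, 3.16 and 2.85 CPM to 0.615, 0.862 and 1.29 CPM (−1.57 ± 0.25) and rose at 21 °C (0.75 ± 0.25).

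**Figure D5:**
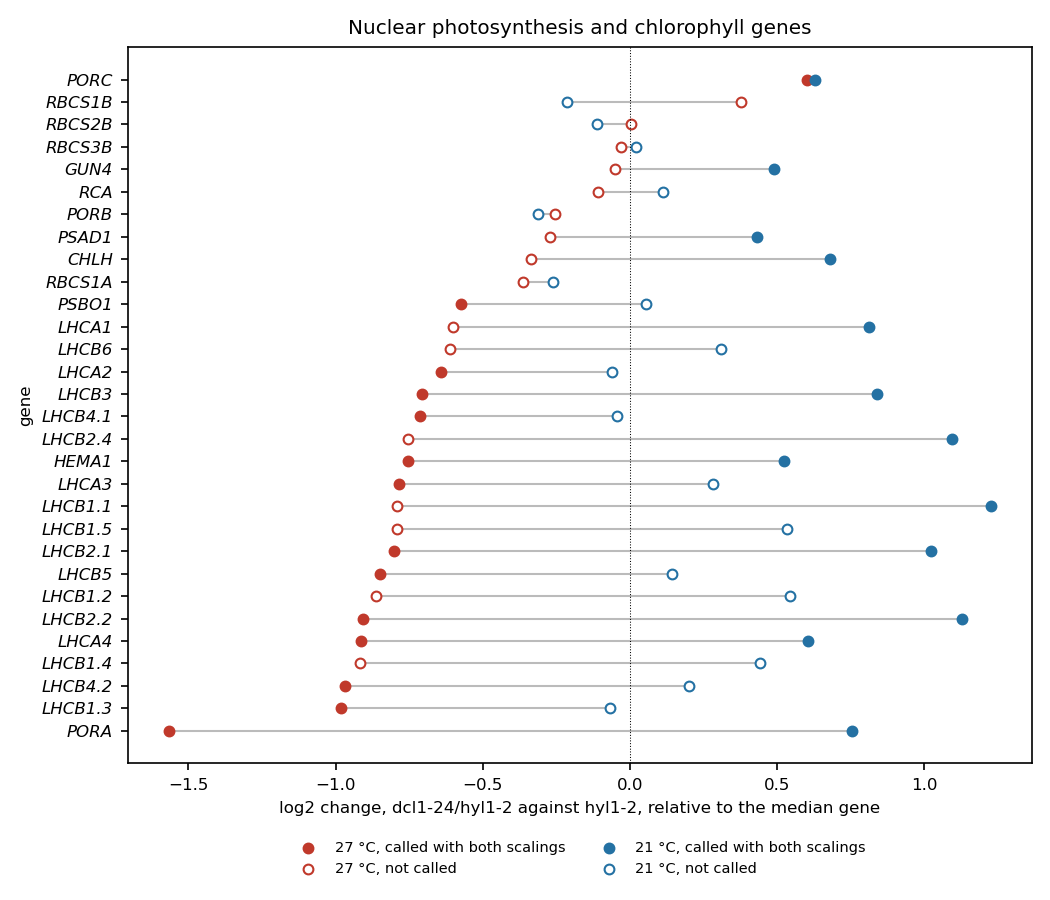
Change in dcl1-24/hyl1-2 relative to hyl1-2 for 30 nuclear photosynthesis and chlorophyll genes at 27 °C (red) and 21 °C (blue), as log2 change minus that of the median gene, with filled points for genes that rose or fell. The medians are −0.71 at 27 °C and 0.44 at 21 °C.

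Further genes differed in their response between the temperatures. AT3G55240 had 41.7, 38.5 and 35.3 CPM in hyl1-2 and 14.2, 14.1 and 15.6 CPM in the suppressor at 27 °C, near the 12, 18.1 and 15.4 CPM of Col-0 (−1.58 ± 0.34). It rose at 21 °C (2.00 ± 0.34), and the difference was −3.57 ± 0.48 (adjusted p = 0.000147). AT4G36850 fell from 55.8, 90.5 and 69.9 CPM to 16.1, 16.5 and 29.6 CPM (−2.02 ± 0.22) and rose at 21 °C by 0.90 ± 0.22. AT3G54500 and AT3G08405, which lies within it and may hold its reads, were not called in the warm and rose by 1.98 each at 21 °C.

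In the opposite direction, XTH18 (AT4G30280), another xyloglucan-modifying enzyme, had 8.98, 5.81 and 12 CPM in hyl1-2 and 45.6, 30.7 and 23.7 CPM in the suppressor at 27 °C. It was called higher there only with the replicate block or without median-of-ratios scaling (1.63 ± 0.59, adjusted p = 0.0479), and it fell at 21 °C (−2.01 ± 0.59). RCI2B, a small membrane protein induced by cold, differed by 3.61 ± 0.83 and fell at 21 °C (−2.52 ± 0.59). AT2G39530 and AT3G22570, the latter overlapping AT3G22565, also fell at 21 °C without a call at 27 °C. AT1G29025 was called at neither temperature, although its difference was (3.65 ± 1.0, adjusted p = 0.0469).

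As a check of the tissue at 27 °C, 4 leaf and cotyledon markers, all of them photosynthesis genes, summed to between 48282 and 55402 CPM in the hyl1-2 libraries and between 34318 and 41257 CPM in the suppressor. The 5 root meristem and radial markers summed to between 40.4 and 50.9 CPM and between 58.2 and 68.3 CPM, the shoot apex and leaf primordium markers to between 157 and 171 CPM and between 191 and 222 CPM, and the seed storage markers to between 4.88 and 18.16 CPM and between 3.78 and 20.4 CPM. Shoot and root markers were thus present in both groups. WUS of the shoot apex list is not among the 25300 genes, and no other marker of these lists was at 0 in all 6 libraries. Their part in the results above was not tested.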

How the data were processed

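Per the labels and the methods of the study, the authors used STAR 2.7.7a for alignment of paired-end reads, featureCounts 2.0.1 for unique reads per Araport11 gene, and DESeq2 1.35.0 for their tests. The values that the authors deposited as FPKM are CPM, since low values in each library are whole multiples of 1 step, and 100% of values are a whole number of such steps to within 0.001. The test was limma 3.58.1 in R 4.3.3 (trend, robust) on log2(CPM + 0.5), fitted to all 30 libraries with group means and no replicate term, for genes at 1 CPM or more in at least 3 libraries. The procedure was tested on simulated data. IDs were matched to RefSeq TAIR10.1 names for 25076 genes and not for 224. Chloroplast and mitochondrial locus IDs carry no names there.

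The libraries of the series held 18.4 to 27.1 M reads. A count of 0 was taken to allow up to 3 reads. No pair of replicates agreed within counting noise.

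The labels number replicates 1 to 3 in each group and do not say what a number marks. Deviations from the group means correlated at 0.44, 0.24 and 0.36 between equally numbered libraries of the compared groups, and at −0.33 to 0.03 between others. The numbers were therefore taken to pair the libraries, but only the fit with the number as a block models this. The main fit and its adjusted p ignore the pairing. With the block 1533 genes changed at 27 °C and not 948. The fit without a replicate term stayed the main one, since the study's methods state none, and values with the number as a block are given where they change a call or a count of calls at 27 °C by over 1.5 times.

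Members and gene lists were chosen with earlier results of these data known. Named were the genes of the genotypes and of warm growth, in each list up to 5 genes that rose or fell most among those whose groups did not overlap, every miRNA target that rose or fell, the 12 largest rises and falls with at least 5 CPM in the higher group, and the 5 largest differences between temperatures in each direction. Alternatives were median-of-ratios scaling, totals over nuclear genes, pseudocounts of 0.1 and 2, a filter at 5 CPM or none, the compared groups alone, limma without trend and robust options, the block, the recovered whole reads with DESeq2 1.42.0 and with edgeR 4.0.16, the study's thresholds of 2-fold and p of 0.01, and leaving out each library.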

Additional observations from a re-analysis of the deposited data

Results flagged for a closer look

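For each gene below the change in dcl1-24/hyl1-2 relative to hyl1-2 differed between 27 °C and 21 °C by limma's test of the difference itself, at an adjusted p under 0.05. Values are the change at 27 °C minus that at 21 °C, in log2 units and relative to the median gene. Groups of 3 were too small for a test of single outlying libraries.

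The difference was negative for AT3G55240 (−3.57), AT4G36850 (−2.90), MYBL2 (−2.59), AT3G54500 (−2.57), AT3G08405 (−2.53), PORA (−2.30), PIF4 (−2.09), LHCB2.2 (−2.01), AT3G58550 (−2.01), LHCA4 (−1.50), ARPN (−1.44), HYL1 (−1.39), SNZ (−1.30) and LHCB4.2 (−1.15). HYL1 rose at 21 °C in the suppressor line (1.03) and not at 27 °C (−0.38). SNZ rose at both temperatures, more at 21 °C (2.1) than at 27 °C (0.79).

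The difference was positive for XTH18 (3.66), AT1G29025 (3.65), RCI2B (3.61), AT2G39530 (3.53), AT3G22570 (3.42), AT1G49570 (2.55), AT4G22495 (2.36), AT4G22505 (2.36), XTH33 (1.90), LOX2 (0.91) and MYC2 (0.91). AT4G22495 and AT4G22505 share their reads and are 1 signal.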

How the results depend on the processing

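Of 102 named genes 69 rose or fell at 27 °C. Of these 41 passed the test of the deposited totals under every alternative that included them, 28 lost it under at least 1, and none reversed. Organelle genes were not included with totals over nuclear genes, and some named genes did not pass the filter at 5 CPM. With the deposited totals 2538 genes were called at 27 °C. This number was 1349 with median-of-ratios scaling, 1409 with edgeR, 738 with DESeq2 and the study's thresholds, and 757 to 2368 when single libraries were left out. At 21 °C 6860 genes were called, 3956 with the compared groups alone, 1785 with the study's thresholds and 4845 to 6706 without single libraries. For the difference between the temperatures, 722 became 1131 with totals over nuclear genes, 386 with the compared groups alone, 1345 with DESeq2, 1109 with the study's thresholds and 275 to 1916 without single libraries. For dcl1-24/hyl1-2 against Col-0, 451 became 1261 with the compared groups alone, 685 with DESeq2 and 176 to 320 without single libraries. For hyl1-2 against Col-0, 957 became 578 to 713 without single libraries. With the replicate number as a block the counts were 3924 at 27 °C, 1634 for the difference and 818 for dcl1-24/hyl1-2 against Col-0. Calls that the block changed at 27 °C among other list members include those given above. Among the 102 named genes it changed 1 call there, that of XTH18. For the difference it added SPL3, BHLH100, BHLH39, LAC4, EDS5 and SAUR21, and at 21 °C MYBL2, SAUR21 and ATCG00720, and it changed no other call among the named genes in these 3 comparisons.

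With 1 library left out, the named genes that missed the test of the deposited totals at 27 °C were MYB65 (replicates 2 and 3 of hyl1-2, 1 and 2 of dcl1-24/hyl1-2), GRF3 (1 and 2 of hyl1-2, 2 and 3 of dcl1-24/hyl1-2), HTT2 (3 of hyl1-2, 1 of dcl1-24/hyl1-2), LAC2, MYC2 and PAR1 (2 of hyl1-2), FRO2 (2 of hyl1-2, 1 of dcl1-24/hyl1-2), LHCA4, LHCB4.2, AT2G01021 and AT3G55240 (1 of dcl1-24/hyl1-2), LHCB1.3 and LHCB2.2 (2 and 3 of hyl1-2, 1 of dcl1-24/hyl1-2), ATCG00700 and ATCG00720 (2 of hyl1-2, 1 of dcl1-24/hyl1-2) and EPF1 (2 and 3 of hyl1-2, 1 and 2 of dcl1-24/hyl1-2), beside SPL9 and YUC2. The second scaling was not applied to these lists, so that a gene absent from them may still have lost its call. Under both scalings 2 to 3 targets and 3 to 6 jasmonate genes rose when single libraries were left out. LAC2 and MYC2 also missed with edgeR, LHCB2.2 and EPF1 with the compared groups alone, LHCB2.2 in limma without trend and robust options, and EPF1 at a pseudocount of 0.1 and with no filter. With DESeq2 and the study's thresholds APS3, CCS, EDS5, GRF3, HSP70-4, IAA3, LAC4, LHCA4, LHCB1.3, LHCB2.2, LHCB4.2, MCM2, MYC2, OPR3, SNZ and XTH4 missed. The targets that rose were 3 and not 5 at a pseudocount of 0.1. Where hyl1-2 has few reads, fitted changes depend on the pseudocount.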
